A study of Homo sapiens with 3 samples.

Results

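Aminoacyl-tRNA synthetases were followed through a pooled CRISPR knockout screen as the 36 synthetase genes of the genome-wide library, 36 of 20381 genes. Members were all single guide RNAs (sgRNAs) named for a listed synthetase symbol. Only sgRNAs with a read in any of the 3 libraries analysed could be counted. Members numbered 341 of 189398 such gene-targeting sgRNAs, with 7 to 10 per gene, and 22 genes had 10. The study describes the library as holding 10 per gene, so gene medians leave out any sgRNA that was never read. By symbol, 17 genes encode cytosolic enzymes or subunits, 16 end in 2 and encode mitochondrial enzymes, and GARS, KARS and QARS were treated as dual or shared. Measured values played no part in this choice, although earlier results of these data were known when it was made.

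An aminoacyl-tRNA synthetase joins an amino acid to its tRNA, and the ribosome then reads that tRNA at the matching codon. The cytosol and the mitochondrion translate separately. Most amino acids therefore have a cytosolic and a mitochondrial enzyme, both encoded in the nucleus. Loss of a cytosolic synthetase stops protein synthesis and is known to kill dividing cells. Loss of a mitochondrial synthetase removes respiratory chain subunits, which many leukaemia lines need for growth.

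The screen used K562, an established human leukaemia line, which expressed Cas9 and received the Bassik knockout library by lentivirus at 0.3 infectious units per cell. Puromycin (1 μg/mL) was added 48 h later and kept for 72 h. The 3 libraries analysed were 1 library of cells sorted for high HLA-B (the HLA-B high sort), 1 of the unsorted control cells of that screen (the high-screen pool) and 1 of the unsorted control cells of the opposite screen for low MHC-I (the low-screen pool). HLA-B is an MHC class I (MHC-I) protein, which K562 carries at a low level. Interferon-γ (IFN-γ) can induce MHC-I, by the study's account only to low levels when given alone. Cells of the high screen met 1 ng/mL IFN-γ for 24 h and were sorted at days 18 and 25. Those of the low screen met 25 ng/mL and were sorted at days 7 and 15. The labels do not give the harvest day or the IFN-γ exposure of either unsorted pool, and for the low-screen pool they disagree on the antibody of its screen. Other sorted libraries were not analysed here.

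Matched reads numbered 34266318 in the sort, 22562241 in the high-screen pool and 98426251 in the low-screen pool. In all, 200682 sgRNAs had a read in any of the 3 libraries. Of these, 49.6% had a read in the sort, 97.7% in the high-screen pool and 93.4% in the low-screen pool. They included 6645 safe-targeting sgRNAs, which cut sites without annotated function. The median count of safe-targeting sgRNAs was 1, 87 and 413 reads in the same order of libraries. With 1 library per group there was no spread between replicates to set a difference against. No p-value of a difference between groups is therefore given beyond the agreement of sgRNAs within a pair of libraries, and intervals cover the counting of sgRNAs or reads only. No library from before selection was analysed here, so low abundance at transduction and loss during culture cannot be told apart.

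The first question was how abundant the synthetase knockouts were in each unsorted pool. Abundance was the log2 of an sgRNA's reads plus 1 over the median safe-targeting reads plus 1, and a gene took the median of its sgRNAs. A gene was called low at or below -1, that is at most 0.5 of the safe-targeting level. Synthetase genes sat mostly below the safe-targeting level in both pools. Their median was -0.78 in the high-screen pool, against -0.02 for all genes, and -0.62 in the low-screen pool, against -0.10 for all genes. The number below the safe-targeting median was 33 of 36 (91.7%) in each pool. Over all genes 51.3% were below it in the high-screen pool and 56.6% in the low-screen pool.

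In the high-screen pool 11 of 36 synthetase genes (30.6%) were low, against 11.3% of all genes. In the low-screen pool 12 of 36 (33.3%) were low, against 12.2% of all genes. Low in both pools were 7 of 36, against 5.68% of all genes. These 7 were the cytosolic AARS, MARS and YARS and the mitochondrial EARS2, HARS2, PARS2 and RARS2. With all gene-targeting sgRNAs as reference MARS (-0.910) and EARS2 (-0.945) were no longer low in the low-screen pool, which left 5 members low in both, against 5.17% of all genes. With a pseudocount of 5 reads MARS (-0.993) was not, which left 6, against 5.23%. With non-targeting sgRNAs as reference 21 members were low in both, against 22.1% of all genes. By means over sgRNAs 16 were, against 13.5%. By compartment, 6 of 17 cytosolic genes (35.3%) and 4 of 16 mitochondrial genes (25%) were low in the high-screen pool. The same counts were 7 of 17 (41.2%) and 5 of 16 (31.2%) in the low-screen pool. The counts of the compartments differed by 2 genes in each pool, and this difference was not tested.

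**Figure D1:**
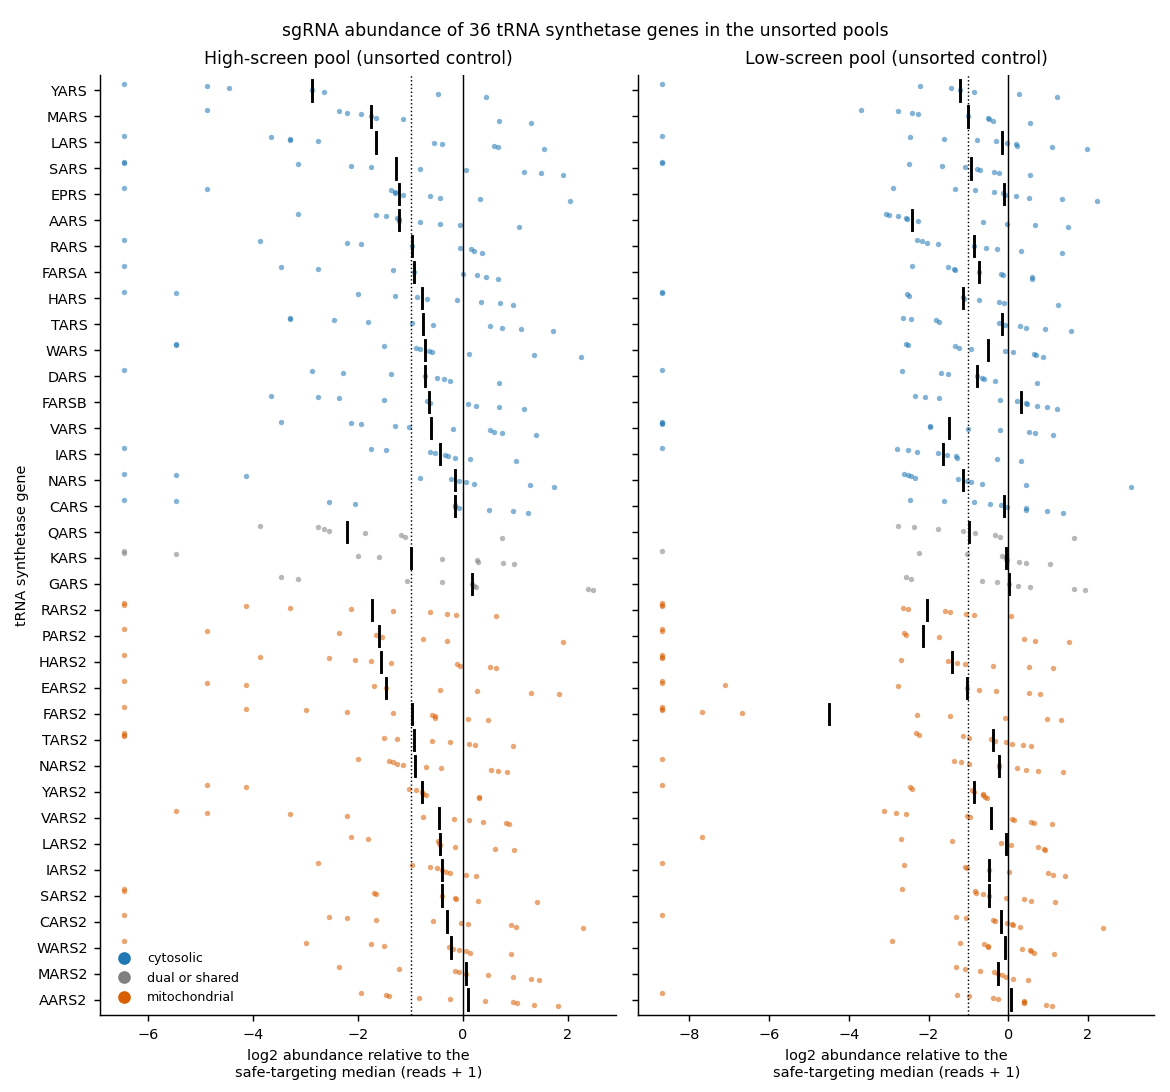
log2 abundance of each sgRNA (points) and the median of each gene (black bars) in the high-screen pool (left) and the low-screen pool (right), relative to the safe-targeting median of that pool (solid line at 0, dotted line at -1, the x scales differ). Points at the far left had no read. In each pool 33 of 36 medians lie left of 0, and points of the same gene spread over several log2 units.

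Other gene groups of the library give these shares a scale. Of 55 genes whose symbols begin RPL or RPLP, which mostly encode proteins of the large ribosomal subunit, 25 (45.5%) were low in the high-screen pool and 33 (60%) in the low-screen pool. Of 77 mitochondrial ribosomal protein genes, 24 (31.2%) and 35 (45.5%) were low in those pools. Olfactory receptor genes, which leukaemia cells are not known to use, were also often low. Of these 393 genes 102 (26%) were low in the high-screen pool and 101 (25.7%) in the low-screen pool. Their medians were -0.40 and -0.44, nearer 0 than those of the synthetases. Low in both pools were 21 of the 55 RPL or RPLP genes, 18 of the 77 mitochondrial ribosomal protein genes and 63 of the 393 olfactory receptor genes, beside 7 of 36 synthetases. The share of low genes therefore set the synthetases apart from all genes by more than it did from olfactory receptors, while 70.7% and 76.1% of olfactory receptor genes lay below the safe-targeting median. Low starting abundance and loss from the cells cannot be told apart for any of these groups.

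Abundance varied widely between synthetases. YARS, the cytosolic tyrosyl-tRNA synthetase (GRCh37 chromosome 1, 33240838 to 33283632, minus strand), had the lowest median in the high-screen pool, -2.87. Its 7 sgRNAs had 13, 62, 2, 0, 11, 3 and 118 reads there, and 0, 177, 494, 88, 153, 228 and 965 reads in the low-screen pool, where the median was -1.22. In both pools sgRNA 10 was the most abundant, and the remaining sgRNAs were low in the high-screen pool except sgRNA 2.

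QARS, the glutaminyl-tRNA synthetase (chromosome 3, 49133365 to 49142563, minus strand), followed at -2.21. Its 8 sgRNAs had 13, 12, 147, 5, 38, 23, 14 and 40 reads in the high-screen pool, and 60, 326, 1296, 120, 188, 232, 79 and 360 reads in the low-screen pool. Only sgRNA 4 exceeded the safe-targeting median of either pool. The QARS median in the low-screen pool was -0.98, just short of a call.

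MARS, the cytosolic methionyl-tRNA synthetase, had a median of -1.76 in the high-screen pool and -1.01 in the low-screen pool. Its 9 sgRNAs had 27, 2, 215, 16, 25, 140, 18, 39 and 22 reads in the high-screen pool, and 296, 85, 31, 290, 77, 599, 317, 205 and 60 reads in the low-screen pool. The sgRNA highest in the high-screen pool was the lowest in the low-screen pool.

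RARS2, the mitochondrial arginyl-tRNA synthetase (chromosome 6, 88223177 to 88299746, minus strand), had medians of -1.73 in the high-screen pool and -2.04 in the low-screen pool. Its 10 sgRNAs had 79, 34, 70, 56, 135, 0, 19, 4, 8 and 0 reads in the high-screen pool, and 0, 137, 227, 149, 435, 65, 0, 199, 0 and 72 reads in the low-screen pool. Each sgRNA absent from a pool was present in the other. LARS, the cytosolic leucyl-tRNA synthetase, was low in the high-screen pool at -1.66 and close to safe-targeting sgRNAs in the low-screen pool at -0.16. Its 10 sgRNAs had 131, 12, 59, 6, 8, 255, 138, 8, 0 and 66 reads in the high-screen pool, and 1617, 74, 135, 336, 0, 891, 472, 241, 406 and 479 reads in the low-screen pool.

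The highest medians in the high-screen pool were those of GARS at 0.17, AARS2 at 0.09 and MARS2 at 0.05. GARS makes the glycyl-tRNA synthetase of both compartments. Its 9 sgRNAs had 454, 66, 488, 101, 9, 98, 7, 41 and 103 reads in the high-screen pool, and 1571, 416, 1299, 601, 259, 69, 75, 337 and 491 reads in the low-screen pool. sgRNAs 1 and 3 stood above the rest in both pools. AARS2, the mitochondrial alanyl-tRNA synthetase, had 179, 31, 48, 307, 22, 224, 168, 117, 32 and 73 reads in the high-screen pool, and 546, 343, 0, 888, 790, 542, 540, 209, 314 and 170 reads in the low-screen pool. MARS2, its methionine counterpart, had 169, 240, 16, 122, 37, 214, 78, 82 and 90 reads in the high-screen pool, and 322, 396, 347, 452, 166, 370, 194, 587 and 253 reads in the low-screen pool. The highest median of the low-screen pool was that of FARSB at 0.32, a subunit of the cytosolic phenylalanyl-tRNA synthetase.

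Some member sgRNAs had no read in a pool. In the high-screen pool 27 of 341 member sgRNAs (7.92%, exact 95% interval 5.28 to 11.3) had no read, against 2.28% of all gene-targeting sgRNAs. All 27 reached 10 reads in the low-screen pool, as did 84.5% of all gene-targeting sgRNAs without a read in the high-screen pool. In the low-screen pool 30 (8.8%, 6.01 to 12.3) had no read, against 6.6%, and 24 of them (80%) reached 10 reads in the high-screen pool, against 77% for all gene-targeting sgRNAs. None of the listed member sgRNAs was missing from both pools, against 317 listed gene-targeting sgRNAs, 7.35% of those missing from the high-screen pool. An sgRNA missing from both pools is listed only if the sort held a read of it. The number missing from both pools and the shares that reached 10 reads therefore leave out sgRNAs without any read. Over the 36 members, gene medians of the pools correlated at Pearson's r = 0.36 and Spearman's rho = 0.49, against 0.62 and 0.56 over all 20381 genes. Both pools share the sgRNAs and their sequence-dependent cutting and amplification, so these values are descriptions only.

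Synthetases of the same amino acid gave 17 pairs of a cytosolic and a mitochondrial gene, with EPRS and FARS2 in 2 pairs each. The cytosolic gene was the lower in 8 of 17 pairs in the high-screen pool and in 9 in the low-screen pool. The order was the same in both pools for 16 pairs. The cytosolic gene was lower in both for alanine, isoleucine, leucine, methionine, serine, valine, tryptophan and tyrosine. The mitochondrial gene was lower in both for arginine, cysteine, glutamate, histidine, proline, threonine and both phenylalanine pairs, and the asparagine pair changed order. Alanine was the amino acid with a gap above 1 in both pools. AARS lay at -1.21 in the high-screen pool and -2.41 in the low-screen pool, and AARS2 at 0.09 and 0.06. The widest gap of the high-screen pool was that of tyrosine, with YARS at -2.87 and YARS2 at -0.79, but in the low-screen pool these lay at -1.22 and -0.87. For arginine the order was reversed, with RARS at -0.97 and -0.87 and RARS2 at -1.73 and -2.04.

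**Figure D2:**
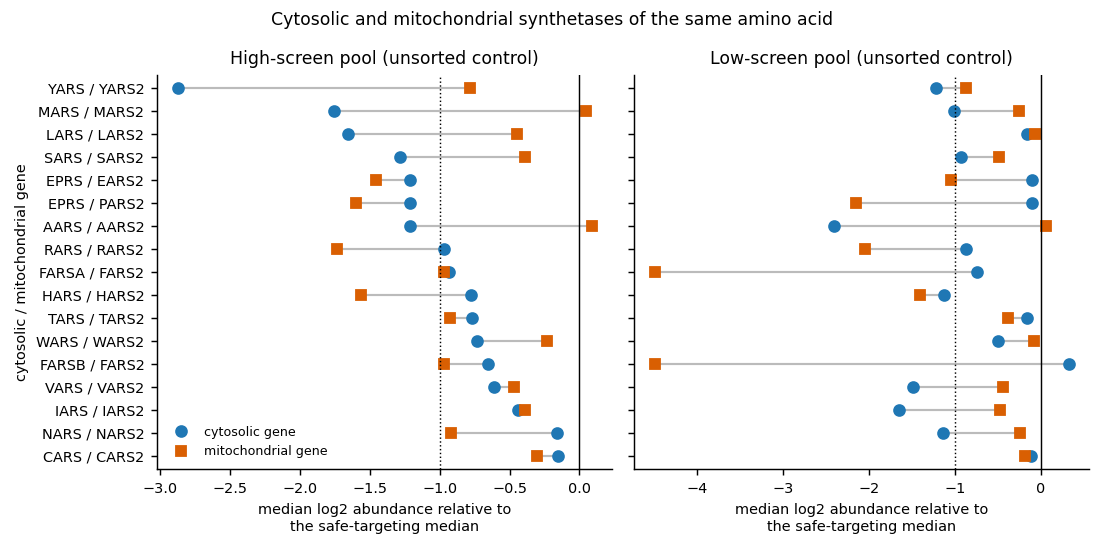
Median log2 abundance of the cytosolic (circles) and mitochondrial (squares) synthetase gene of each amino acid in the high-screen pool (left) and the low-screen pool (right), relative to safe-targeting sgRNAs (x scales differ). AARS and AARS2 lie far apart in both pools, and FARS2 lies at -4.49 in the low-screen pool.

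HARS and HARS2 need care as a pair. They lie head to head on chromosome 5, HARS at 140052620 to 140071122 on the minus strand and HARS2 at 140071015 to 140078890 on the plus strand, and the annotated genes share 108 bases. HARS2 was low in both pools, at -1.57 and -1.41 in the high-screen and low-screen pool. HARS was at -0.78 and -1.12. Sequences of the sgRNAs were not used here, so it is not known whether any of them cuts in the shared stretch.

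Several cytosolic synthetases sit in the multisynthetase complex, a particle that also holds the scaffold proteins AIMP1, AIMP2 and EEF1E1. Of its 8 synthetase genes DARS, EPRS, IARS, KARS, LARS, MARS, QARS and RARS, 4 (50%) were low in the high-screen pool and 2 (25%) in the low-screen pool. Of the 11 other cytosolic genes, 3 (27.3%) and 5 (45.5%) were low in those pools. The order of the groups thus turned between pools. The scaffold genes lay nearer 0, with AIMP1 at -0.30 and 0.28, AIMP2 at 0.13 and -0.49, and EEF1E1, with 3 sgRNAs, at 0.02 and -0.31 in the high-screen and low-screen pool.

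The second question was how the pools differed. The ratio was the log2 of high-screen over low-screen reads, each with 1 read added and as a share of its library, less the safe-targeting median ratio, for sgRNAs that reached 10 reads in either pool. Screens with different sort days and IFN-γ doses gave the pools, so time, dose and library cannot be told apart. Synthetases leaned towards lower abundance in the high-screen pool. Their median ratio was -0.27, against 0.13 for all genes, and it was below 0 for 23 of 36 genes (63.9%), against 40.3% of all genes. The other groups did not share this lean. Medians were 0.15 for RPL or RPLP genes, 0.17 for mitochondrial ribosomal protein genes and 0.19 for olfactory receptor genes. Below 0 were 45.5%, 37.7% and 38.3% of these groups. At the 2-fold line, 2 of 36 members were lower, against 3% of all genes, and 3 of 36 were higher, against 6.78%. Both shares of members are close to these background shares.

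YARS and RARS were the members at least 2-fold lower in the high-screen pool, with ratios of -1.42 and -1.31. By means over sgRNAs RARS was at -0.69, short of the 2-fold line, and with a minimum of 30 reads YARS was at -2.47. RARS, the cytosolic arginyl-tRNA synthetase, had 100, 83, 0, 5, 22, 112, 97, 44 and 18 reads in the high-screen pool, and 99, 1060, 122, 92, 338, 84, 279, 514 and 226 reads in the low-screen pool, a pool sequenced more deeply. QARS followed at -0.87, with 7 of 8 sgRNAs below a ratio of 0. EPRS, which charges both glutamate and proline, was at -0.78. It had 33, 0, 35, 64, 109, 358, 2, 56, 35 and 39 reads in the high-screen pool, and 320, 233, 380, 470, 1048, 1935, 590, 390, 55 and 164 reads in the low-screen pool. SARS2, the mitochondrial seryl-tRNA synthetase, was also at -0.78, with 66, 26, 79, 27, 106, 78, 231, 0 and 0 reads in the high-screen pool, and 236, 265, 616, 230, 934, 542, 398, 64 and 294 reads in the low-screen pool.

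FARS2, IARS and EARS2 were at least 2-fold higher in the high-screen pool, at ratios of 2.02, 1.499 and 1.03. EARS2 fell short of the line under 4 alternatives, at 0.76 to 0.995. FARS2, the mitochondrial phenylalanyl-tRNA synthetase (chromosome 6, 5261277 to 5829425, plus strand), shows what such a ratio can rest on. Its 10 sgRNAs had 34, 121, 93, 60, 4, 60, 0, 57, 10 and 18 reads in the high-screen pool, and 389, 818, 1036, 0, 84, 0, 149, 1, 0 and 3 reads in the low-screen pool. Of these, 5 had 0 to 3 reads in the low-screen pool and at least 10 in the high-screen pool, and the other sgRNAs showed no excess in the high-screen pool. With a minimum of 30 reads the FARS2 ratio turned to -0.81.

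**Figure D3:**
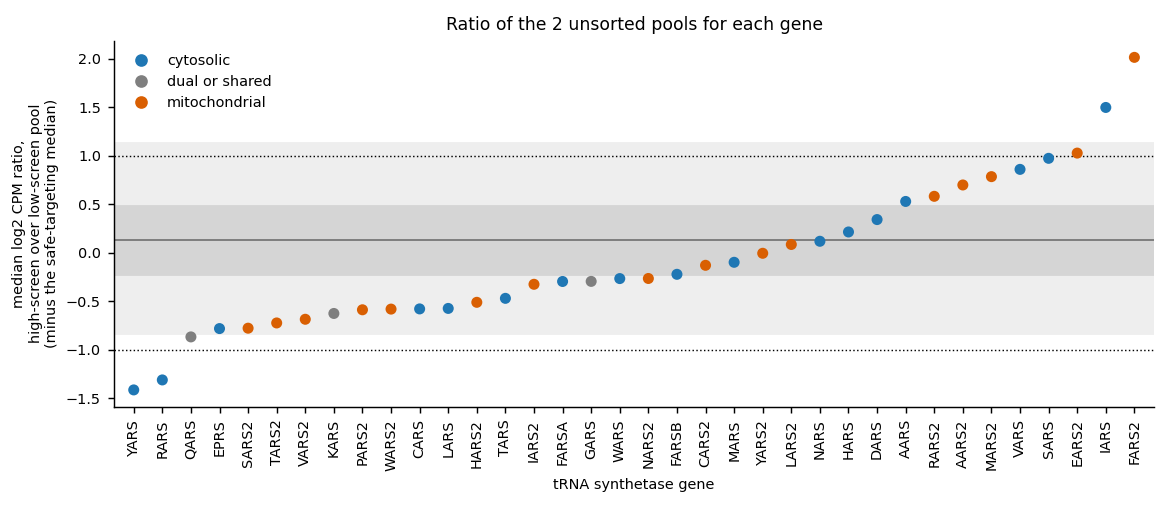
Median log2 ratio of high-screen over low-screen pool for each synthetase gene, with the range of all genes from the 25th to the 75th percentile (dark band), from the 5th to the 95th (light band) and their median (grey line). Most members lie below the median of all genes, while YARS, RARS and QARS fall below the light band and IARS and FARS2 rise above it.

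The pools were also compared by redundant siRNA activity (RSA), the gene score that the study used for its sorts. In RSA the sgRNAs are put in order of their ratio, an exact hypergeometric p is computed at the rank of every sgRNA of a gene, and the lowest of these is kept. For a call this p had to be below 0.001 and rest on 4 or more sgRNAs. That p describes agreement of sgRNAs within a pair of libraries and no spread between cultures. RARS was called lower (lowest exact hypergeometric p = 9.32e-04, 6 sgRNAs), 1 member against 0.762% of all genes. FARS2 was called higher (lowest exact hypergeometric p = 9.95e-05, 5 sgRNAs), 1 member against 0.836% of all genes. YARS, KARS and TARS2 had RSA p of 8.73e-04, 7.96e-04 and 9.28e-04 for lower, but 3 sgRNAs each.

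The third question was whether synthetase knockouts were taken or left by the sort for high HLA-B. Every sgRNA that reached 10 reads in the high-screen pool was scored by its log2 ratio of sorted over control abundance per total matched reads, with 1 read added. This left 277 of 341 member sgRNAs, with 4 to 10 per gene. The 64 under 10 control reads were 18.8% of members, against 8% of gene-targeting sgRNAs. No member was called. Of 36 members 0 were called enriched by RSA, against 0.527% of all genes, and 0 were called depleted, against 0.409%. At an RSA p below 0.05, which takes in many genes because RSA keeps the smallest of several p-values, 2 members were enriched, against 22.4% of all genes, and 9 were depleted, against 22.7%. These were CARS and QARS on the enriched side. For QARS the lowest exact hypergeometric p, 0.0357, was reached at the last of its 7 scored sgRNAs, at a log2 ratio of -5.96. The QARS median was -4.30, against -4.77 for all genes, on a scale from which no reference was subtracted. This p rests on all 7 scored sgRNAs lying at or above the ratio of -5.96. As 22.4% of all genes passed the same line, it does not by itself show a rise in the sort. On the depleted side VARS (lowest exact hypergeometric p = 0.00175), SARS2 (p = 0.00396), WARS, RARS2, HARS2, HARS, TARS2, EARS2 and NARS2 passed. WARS passed on 1 sgRNA, which had 415 control reads and no sorted read. Among sgRNAs without a sorted read the ratio is set by control reads alone. Their order at the low end of the ranking, on which depleted p-values draw, therefore follows control abundance. These 9 of 36 are close to the share of all genes. They were 6 of 16 mitochondrial and 3 of 17 cytosolic genes, against 22.7% of all genes, and this split was not tested.

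Members were lower in the sort than genes at large. The median of gene medians was -5.40 for all members, against -4.77 for all genes. It was -5.30 for cytosolic and -5.55 for mitochondrial members. Below the median of all genes were 27 of 36 members, 12 of 17 cytosolic and 13 of 16 mitochondrial. With a pseudocount of 5 reads the cytosolic median came close to that of all genes, -3.19 against -3.14. The mitochondrial median stayed lower, at -3.71. Most gene-targeting sgRNAs had no sorted read, so these medians largely follow how many control reads an unrecovered sgRNA had. Recovery itself was therefore counted next.

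Of the 341 member sgRNAs 231 (67.7%, exact 95% interval 62.5 to 72.7) had no read in the sort, against 50.8% of gene-targeting and 49.6% of safe-targeting sgRNAs. The share was 70.9% (62.9 to 78) for mitochondrial and 65.6% (57.8 to 72.9) for cytosolic members, and these intervals overlap. Rarer sgRNAs are lost more easily, so sgRNAs were compared at like control counts. At 10 to 29 control reads 87.5% (75.9 to 94.8) of 56 member sgRNAs had no sorted read, against 71% of gene-targeting and 68% of safe-targeting sgRNAs. At 30 to 99 reads the share was 68.1% (59.6 to 75.9) of 135, against 57.4% and 55.9%. At 100 to 299 reads it was 49.4% (37.8 to 61) of 77, against 37.5% and 36.8%. At 0 to 9 reads and at 300 reads or more, where members numbered 64 and 9, the members' interval held the share of all gene-targeting sgRNAs. sgRNAs of the same gene share their knockout, so they are not independent, and intervals that treat them as independent are too narrow.

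**Figure D4:**
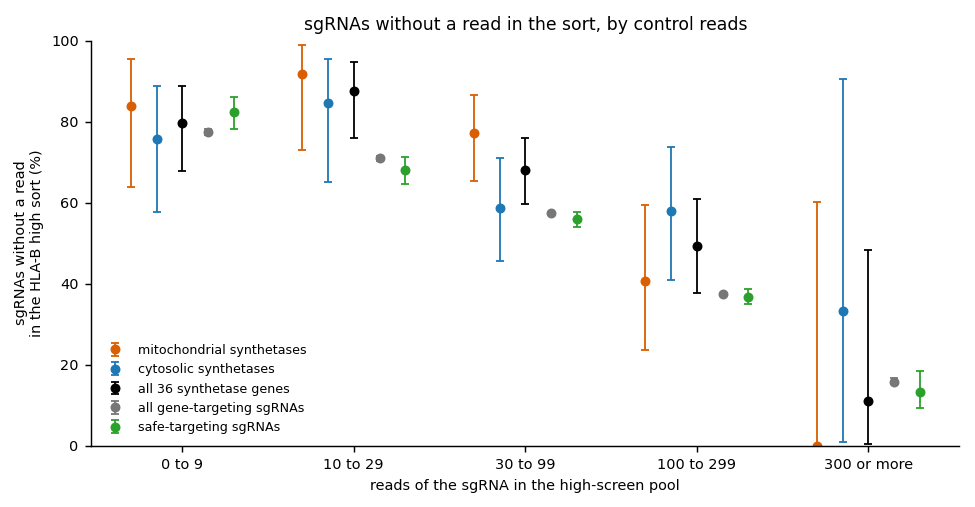
Percent of sgRNAs without a read in the HLA-B high sort, by reads in the high-screen pool, for mitochondrial, cytosolic and all 36 synthetase genes, all gene-targeting sgRNAs and safe-targeting sgRNAs (points with exact 95% binomial intervals, counting error only). Synthetase sgRNAs with 10 to 299 control reads were without a sorted read more often than safe-targeting sgRNAs, 87.5% against 68% at 10 to 29 reads.

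The gap can be put as a number. With the gene-targeting shares of each control bin, 197 member sgRNAs would have had no sorted read, and 231 had none, a ratio of 1.17. The ratio was 1.13 for cytosolic members, 1.11 for the 3 dual or shared genes and 1.23 for mitochondrial members. It was 1.24 for large ribosomal subunit genes, 1.14 for mitochondrial ribosomal protein genes, 1.05 for olfactory receptor genes and 0.98 for safe-targeting sgRNAs. The synthetases thus lay between olfactory receptor and large ribosomal subunit genes on this scale. With bins of low-screen pool reads, a comparison chosen after the data were seen, the ratio for all members was 1.23.

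Recovered reads came from few sgRNAs. A log2 ratio above 1 was reached by 20 of 277 scored member sgRNAs (7.22%, 4.47 to 10.9), against 12.5% of gene-targeting and 11.7% of safe-targeting sgRNAs. Mitochondrial members gave 5 of 126 (3.97%, 1.3 to 9.02) and cytosolic members 13 of 130 (10%, 5.43 to 16.5). A ratio below -1 was found for 82.7% of member sgRNAs, against 70.9% of gene-targeting sgRNAs. The mean abundance of a mitochondrial member sgRNA was 1.18 CPM (reads scaled to a total of 1000000) in the sort, 3.18 in the high-screen pool and 3.44 in the low-screen pool. A cytosolic one had 3.01, 3.14 and 3.51 CPM in those libraries, and a safe-targeting one 4.18, 4.75 and 5.19 CPM. Of the 178 CPM of all mitochondrial members in the sort, CARS2 sgRNA 4 held 45.9. With that sgRNA kept and CARS sgRNA 9 left out, the cytosolic mean in the sort was 1.54 CPM. In this one-sided comparison CARS sgRNA 9 held much of the difference between compartments.

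**Figure D5:**
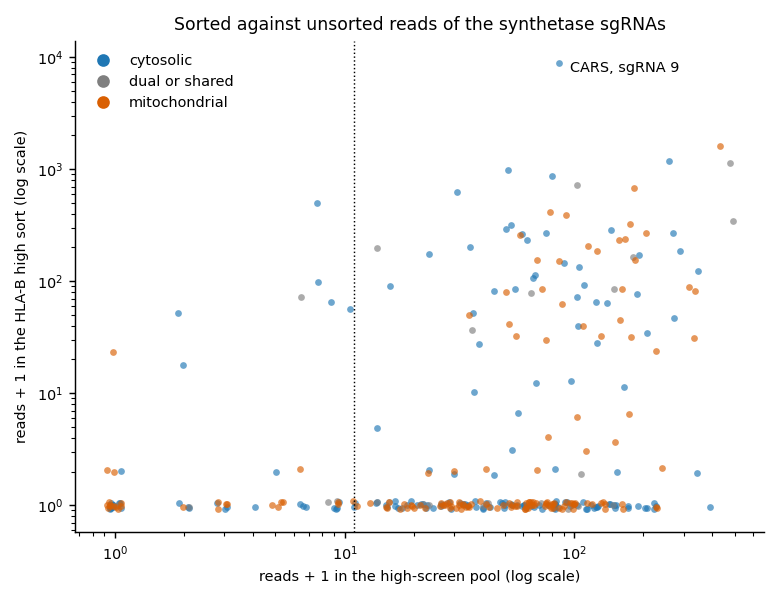
Reads plus 1 of each member sgRNA in the HLA-B high sort against the high-screen pool (log scales, points moved slightly apart, dotted line at the minimum of 10 control reads). Most points lie on the bottom row without a sorted read, and CARS sgRNA 9 with 8239 sorted reads stands above all others.

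CARS, the cytosolic cysteinyl-tRNA synthetase (chromosome 11, 3022152 to 3078843, minus strand), held that sgRNA. Its 10 sgRNAs had 0, 31, 0, 913, 0, 0, 11, 0, 8239 and 0 reads in the sort. In the high-screen pool they had 123, 206, 20, 78, 1, 78, 169, 14, 82 and 0 reads, and in the low-screen pool 563, 405, 226, 134, 298, 815, 561, 74, 1066 and 362 reads. The 8239 reads of sgRNA 9 were 32.1% of all sorted reads of the members, and they ranked 125 among all sgRNAs of the sort. The RSA p of 0.00432 rested on this sgRNA alone, and sgRNA 4 was also higher in the sort, at a log2 ratio of 2.93. Of the 10 CARS sgRNAs 6 had no sorted read.

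VARS2 and DARS had the highest medians in the sort, -1.40 and -3.28, but both values depended on the setting. VARS2 was at -4.21 against the low-screen pool and -2.96 by means over sgRNAs. DARS was at -3.91 against the low-screen pool and -1.16 with a minimum of 30 reads. VARS2 encodes the mitochondrial valyl-tRNA synthetase. Its sgRNAs had 0, 243, 0, 347, 89, 29, 0, 0, 0 and 0 reads in the sort, 1, 154, 2, 161, 77, 51, 94, 8, 18 and 114 in the high-screen pool, and 58, 201, 69, 614, 877, 458, 644, 47, 210 and 441 in the low-screen pool. DARS encodes the cytosolic aspartyl-tRNA synthetase. Its sgRNAs had 0, 9, 997, 106, 0, 290, 0, 0 and 0 reads in the sort, 11, 33, 52, 67, 0, 73, 141, 61 and 17 in the high-screen pool, and 238, 128, 64, 679, 143, 271, 262, 330 and 0 in the low-screen pool. Recovery was again split, with some sgRNAs of each gene well represented and most absent.

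The lowest medians were those of VARS at -6.81 and SARS2 at -6.67. VARS, the cytosolic valyl-tRNA synthetase, had 1, 0, 465, 0, 0, 0, 0, 0, 0 and 0 reads in the sort, 147, 19, 7, 42, 125, 35, 228, 131, 76 and 22 in the high-screen pool, and 594, 0, 0, 106, 105, 359, 906, 657, 203 and 0 in the low-screen pool. The sgRNA with 465 sorted reads had 7 control reads and so was not scored. SARS2 had 0, 0, 0, 0, 2, 0, 1, 0 and 0 sorted reads from the control reads given above.

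Of 36 members 3 (8.33%) had no sgRNA with 10 sorted reads, against 3.47% of all genes. These were SARS2, YARS and RARS2. For SARS2 the 3 sorted reads stood against 613 in the high-screen pool, a CPM ratio of 0.00322 (exact 95% interval 6.63e-04 to 0.00946). YARS had 1 sorted read against 209, a ratio of 0.00315 (7.94e-05 to 0.0177). RARS2 had no sorted read from any of its 10 sgRNAs, 1 member against 1.8% of all genes. A count of 0 allows up to 3 reads, against 405 reads in the high-screen pool, and the exact 95% interval of the CPM ratio ended at 0.00602. YARS and RARS2 were also among the 5 least abundant members of the high-screen pool. Reads are PCR products without molecular identifiers, so these limits cover counting error only.

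The 3 other members among the 5 lowest of the high-screen pool were recovered in part. QARS had 207, 0, 85, 76, 39, 0, 0 and 0 sorted reads, and its median was -4.30. MARS had sorted reads from 2 of 9 sgRNAs, 277 and 163. LARS had them from 3 of 10, 25, 43 and 115, and its median was -3.72.

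Related genes of tRNA charging and translation elongation were listed alongside under 29 symbols, and 27 genes were found, GATB and GCN1 among them under the older symbols PET112 and GCN1L1. Of these 27 genes 5 were low in the high-screen pool, against 11.3% of all genes, and 8 in the low-screen pool, against 12.2%. Low in both were 3, against 5.68%. The 3 were QRSL1, a subunit of the mitochondrial amidotransferase that makes glutaminyl-tRNA, at -1.16 and -1.56, TSFM, a mitochondrial elongation factor, at -2.11 and -1.36, and ATF4, the transcription factor of the amino acid response, at -1.42 and -2.19, in the high-screen and low-screen pool. In the ratio of the pools 3 were at least 2-fold higher in the high-screen pool, against 6.78% of all genes, and 0 lower, against 3%. The 3 were MTFMT, which formylates the mitochondrial initiator tRNA, at 1.44, the editing enzyme DTD2 at 2.23 and the elongation factor subunit EEF1G at 1.501. In the sort 0 were called enriched, against 0.527% of all genes. The editing factor AARSD1 was called depleted (lowest exact hypergeometric p = 5.88e-04), 1 gene against 0.409% of all genes. The sensor EIF2AK4, which detects uncharged tRNA, was not called in either direction.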

How the data were processed

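The deposited values are raw, unnormalized counts of reads for each sgRNA. The authors made these counts by trimming reads, mapping them to the sgRNA sequences with Bowtie2 and dropping reads that matched more than 1 place. Versions are not given in the sources used here. sgRNAs without a read in a library are not listed for it. They were set to 0 if any other of the 3 libraries listed them. An sgRNA without a read in any of the 3 could not be counted. Reads matching no sgRNA (21.9% in the sort, 20.6% in the high-screen pool, 12.1% in the low-screen pool) were left out. Computation used Python 3.11.15, numpy 2.4.6, pandas 2.3.3 and scipy 1.17.1, with figures drawn in matplotlib 3.10.9. Gene positions came from GENCODE release 44 on GRCh37, matched by identifier for 36 of 36 members, and 18 have newer symbols there (AARS is AARS1). Scripts were tested on simulated data.

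Scales, the added read (pseudocount of 1), the count minimum of 10 and the RSA rule are defined with the results. Abundance was set against safe-targeting sgRNAs, because uncut non-targeting sgRNAs were more abundant (median 43 reads in the sort, 154 in the high-screen pool and 627 in the low-screen pool). Members and gene lists were chosen with earlier results of these data known. Reads are given for the 5 lowest and 3 highest members of the high-screen pool, the 5 lowest ratios of the pools, the 2 highest and 2 lowest in the sort, and the member with the most sorted reads of an sgRNA. FARS2, IARS, EARS2, the genes low in both pools and the multisynthetase complex were named after their values were seen. Alternatives changed the reference, averaging, pseudocount, count minimum, fold, control library and RSA rule.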

Additional observations from a re-analysis of the deposited data

How the results depend on the processing

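No paired analysis was possible because each group has 1 library. No member was called in the sort in either direction under any alternative run. Counts of low members depended on the reference and on averaging. With non-targeting sgRNAs as reference, which moved the median of all genes by -0.82 in the high-screen pool and -0.60 in the low-screen pool, 15 cytosolic and 14 mitochondrial members were low in the high-screen pool, against 40.7% of all genes, and 12 and 9 in the low-screen pool, against 32.3%. With means over sgRNAs 14 cytosolic and 10 mitochondrial members were low in the high-screen pool, against 19.1% of all genes, and 8 mitochondrial members in the low-screen pool, against 34.7%. At 1.5-fold 14 cytosolic and 8 mitochondrial members were low in the high-screen pool, against 22.1% of all genes, and 11 cytosolic members in the low-screen pool, against 23.9%. Lower in the high-screen than the low-screen pool were 2 cytosolic and 0 mitochondrial members as reported, against 3% of all genes. By means 4 cytosolic and 2 mitochondrial members were lower, against 3.85%. By RSA, an alternative added after the data were seen, 1 cytosolic member was lower, against 0.762%. With non-targeting sgRNAs as reference 1 mitochondrial member was lower, against 6.78%, and with a minimum of 30 reads 1, against 3.31%. At 1.5-fold 4 mitochondrial members were lower. The share of all genes past that line was not counted, but PARS2, the nearest to it of these members at -0.589, had 10.4% of all genes below it. The FARS2 ratio of the pools turned to -0.81 with the minimum of 30 reads, where sgRNAs with few reads in both pools drop out. In the sort the cytosolic median was -3.19 with a pseudocount of 5 reads, against -3.14 for all genes. It was -4.19 without a count minimum, against -4.16, and -4.33 by means, against -3.78. With the pseudocount of 5 and without a minimum it thus lay close to all genes. The mitochondrial median was -3.71 with a pseudocount of 5 and -4.87 by means, and the median of all genes moved by 1.63 and 1.00 in those settings. Limiting RSA to sgRNAs past a ratio of 0, also added later, left 63 genes enriched in place of 107 and no member. The other 41 alternatives run for the counts and medians of the compartments, the calls in the sort and the share without a sorted read stayed within 1.5 times. Among values of single members and of the dual genes, 111 stayed within 1.5 times, 68 moved by more and 1 turned its direction. In the sort 49.6% of safe-targeting sgRNAs had no read, although it had more matched reads than the high-screen pool, so absence of an sgRNA does not by itself show depletion.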
